A study of Mus musculus with 69 samples.

Results

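Cxcr4, Itga4, Itgb1, Cd44 and Selp, 5 of 21887 protein-coding genes, encode proteins that haematopoietic stem cells use to find, enter and hold on to the bone marrow. Histone H3K4me1, which marks enhancers, and H3K27ac, which marks active enhancers and promoters, were mapped in mouse blood stem and progenitor cells that carry a conditional allele of Kmt2c or none, the gene for the H3K4 methyltransferase MLL3. All peaks that lay within 50 kb of the 5 gene bodies were taken from each of 18 peak lists on the mouse build mm10 (GRCm38). When the peaks of all lists of a mark were merged into elements, 139 of 147614 H3K4me1 elements and 118 of 79712 H3K27ac elements fell into these windows. The rule takes the genes by name and uses no measured value, but the group was proposed with earlier results of these data known.

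Homing starts when a circulating stem cell rolls on the vessel wall, which selectins and their ligands mediate. Chemokine signals then switch integrins to their binding form, so that the cell stops, crosses the wall and settles beside stromal cells. CXCR4 is the receptor for the stromal chemokine CXCL12 and is needed for retention in the marrow. The integrin subunits alpha4 (Itga4) and beta1 (Itgb1) pair to form VLA-4, which binds VCAM-1 and fibronectin. CD44 binds hyaluronan, and some of its sugar-modified forms are ligands for selectins. P-selectin, the product of Selp, is best known as the adhesion protein that platelets, megakaryocytes and endothelial cells store in granules and show after activation.

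The stem cells (HSCs) and their more committed descendants, the progenitors (HPCs), were sorted, fixed and profiled by ChIPmentation, in which antibody-bound chromatin is tagged with the Tn5 transposase. H3K4me1 was profiled at 8 weeks of age in untreated HSCs and HPCs of wild-type, heterozygous (Kmt2c f/+; Vav-Cre) and knockout (Kmt2c f/f; Vav-Cre) mice, with 3 libraries per group. In HSCs of 16-week-old wild-type and knockout mice both marks were profiled after 3 rounds of PBS or of 5-fluorouracil (5FU), which is toxic to cycling cells, at 150 mg/kg and 3 weeks apart. In HPCs of wild-type and knockout mice aged 8 to 10 weeks H3K27ac was profiled with 4 libraries per group after PBS or the inflammatory cytokine interleukin-1 (IL-1), given for 3 days at 0.5 µg per day. After these rounds the H3K4me1 lists drew on 4 wild-type and 3 knockout libraries with PBS and on 6 and 4 with 5FU, and each H3K27ac list of HSCs drew on 3. Vav-Cre is active throughout the blood-forming system, and the labels name no Cre for the wild type. Peaks of these marks do not show whether Kmt2c was deleted. The series held 69 samples, of which 63 entered the 18 lists and 6 were input chromatin.

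Each group had 1 list for all of its libraries, so no value below has a replicate error and no difference was tested. In sorted populations, fewer cells that carry a mark and less of the mark per cell cannot be told apart. The lists covered 33.4 to 116.0 Mb. The 3 H3K4me1 lists at 16 weeks other than wild type after 5FU covered 44.2 to 54.0 Mb and had 30.2% to 39.5% of their peaks at a −log10 p of at least 5. The wild-type H3K4me1 list after 5FU covered 116.0 Mb with 54.2% of peaks at that level, and it drew on 6 libraries of 2 library sets, so treatment and library set cannot be told apart in it. To set lists of unequal size side by side, the log2 ratio of covered bases was taken after adding 1000 bases to each list, and the median gene was set to 0, over protein-coding genes that had 1000 or more covered bases in at least 1 of the pair. This value is the relative log2 ratio. A gene is counted as past the fold when it lay at least 1.5-fold (0.58 on the log2 scale) from the median gene.

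The cell type labels were checked against marker lists. In wild-type H3K4me1 lists at 8 weeks all 8 HSC markers were covered less in HPCs relative to the median gene, with a median of −0.90 and Tek at −2.19. Of 8 HPC markers 7 were covered more, with a median of 0.58, and the neutrophil protease gene Ctsg had 0 bases in HSCs and 3416 in HPCs. For H3K27ac in wild type after PBS some markers ran the other way in covered bases. The HSC markers Hlf (8380 in HSCs and 22908 in HPCs) and Procr (5254 and 8431) had more in HPCs, and the others fewer. Of the HPC markers Cebpa (7748 and 6166) and Fcgr3 (2653 and 1787) had fewer in HPCs, Ctsg had 0 in both, and the others had more.

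The bases before the start sites are shown for 3 genes whose start sites carried different patterns of H3K27ac in the lists. Each stretch is the 250 bases before the annotated start, read 5′ to 3′ on the strand of the gene from RefSeq on GRCm38.p6, with every CG dinucleotide in capitals. Cxcr4 lies at chr1:128592300-128592549 on the minus strand, Itgb1 at chr8:128685404-128685653 on the plus strand and Selp at chr1:164115014-164115263 on the plus strand.
Cxcr4: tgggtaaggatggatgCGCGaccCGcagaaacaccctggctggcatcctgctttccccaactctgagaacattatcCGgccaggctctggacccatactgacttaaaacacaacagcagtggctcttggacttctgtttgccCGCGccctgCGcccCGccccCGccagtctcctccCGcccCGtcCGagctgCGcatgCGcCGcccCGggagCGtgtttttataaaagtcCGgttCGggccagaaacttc
Itgb1: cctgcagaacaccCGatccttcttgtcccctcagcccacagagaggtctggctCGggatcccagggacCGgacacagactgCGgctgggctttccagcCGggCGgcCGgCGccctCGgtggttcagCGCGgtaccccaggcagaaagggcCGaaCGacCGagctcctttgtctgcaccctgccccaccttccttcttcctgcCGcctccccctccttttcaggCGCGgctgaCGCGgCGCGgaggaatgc
Selp: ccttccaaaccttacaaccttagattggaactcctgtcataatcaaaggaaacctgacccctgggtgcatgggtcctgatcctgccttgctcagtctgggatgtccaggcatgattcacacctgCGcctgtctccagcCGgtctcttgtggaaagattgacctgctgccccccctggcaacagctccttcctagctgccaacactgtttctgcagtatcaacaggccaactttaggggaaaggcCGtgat
Cxcr4 had 19 CG dinucleotides in these bases and Itgb1 had 21, against a median of 10 over 17486 promoters. Selp had 3, a number equal to the lower quartile. Itga4 had 6 and Cd44 had 5, so 3 of the 5 genes lay below the median promoter.

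Both strands of the 5 promoters were searched for 6 short motifs. The letters TATAAA occurred in the Cxcr4 promoter at 2 overlapping places, the nearer at −30 from the start, and in 12.4% of all promoters. The SP/KLF letters GGGCGG occurred 3 times before Cxcr4 and once each before Itga4 and Itgb1 (42.7% of all promoters). The AP-1 letters TGANTCA occurred once before Selp, at −139, and in 6.22% of promoters. The RUNX letters TGTGGT occurred once before Itga4 (12.5%) and the GATA letters AGATAA once before Cd44 (9.12%). The ETS letters CCGGAA (15.2%) were in none of the 5 windows.

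The genes differed in how much of their surroundings carried the marks. As a share of the window, the median over 10 H3K4me1 lists was 20.8% for Cd44, 19.4% for Selp, 19.3% for Cxcr4, 12.2% for Itga4 and 4.46% for Itgb1. Cd44, Selp and Cxcr4 overlapped in their ranges across lists (9.32% to 24.0%, 6.82% to 28.3% and 6.72% to 27.6%). The order changed for H3K27ac. The median over 8 lists was 12.1% for Cxcr4, 10.3% for Cd44, 5.94% for Itga4, 3.38% for Selp and 2.64% for Itgb1. Selp was thus broadly marked by H3K4me1 and sparsely by H3K27ac. In percentile rank of covered bases among all genes, Selp lay between 82.4 and 96.7 for H3K4me1 and between 47.1 and 80.3 for H3K27ac. Cd44 lay between 94.6 and 98.3 in every list of either mark. These ranks were not corrected for window length, which was 190.5 kb for Cd44, 134.8 kb for Selp and 104.1 kb for Cxcr4.

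**Figure D1:**
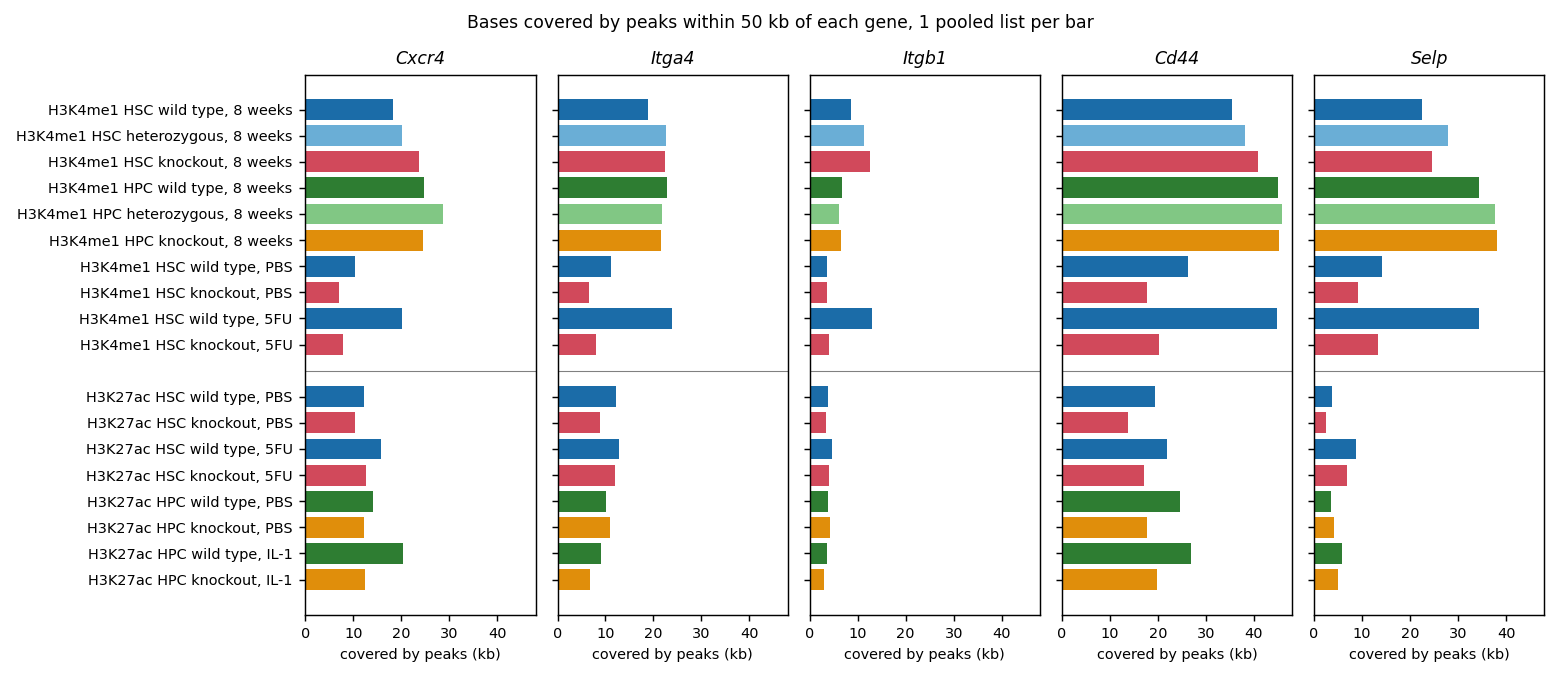
Kilobases covered by peaks within 50 kb of each gene (horizontal axis) in each of the 18 pooled lists (bars, coloured by cell type and genotype, with H3K4me1 above the line and H3K27ac below it). Cd44 has the longest bar in every list, and for Selp the H3K27ac bars (2451 to 8737 bases) are short beside its H3K4me1 bars (9191 to 38202 bases).

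Elements shared by all lists made up a similar share near these genes and genome-wide. In all 10 H3K4me1 lists 24 of 139 elements were present (17.3%, against 16.7% of all elements), of which 9 belonged to Cd44 and 7 to Cxcr4. In all 8 H3K27ac lists 19 of 118 were present (16.1%, against 19.9% of all elements), of which 8 belonged to Cd44 and 6 to Cxcr4. Of the 139 H3K4me1 elements 64 overlapped an H3K27ac element (46.0%, against 35.9% of all), and of the 118 H3K27ac elements 107 overlapped an H3K4me1 element (90.7%, against 87.5% of all). At the start base itself the marks parted, as they did over all genes. Of the start sites of all genes the H3K4me1 lists covered 1.44% to 7.46% and the H3K27ac lists 33.5% to 44.4%. No H3K4me1 list covered the start of Cxcr4, Itga4, Itgb1 or Cd44, and 5 of 10 covered that of Selp. H3K27ac covered the start of Itga4, Itgb1 and Cd44 in 8 of 8 lists.

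Cxcr4 (gene 12767, chr1:128588199-128592299, minus strand) is a short gene with no other protein-coding gene in its window. At 8 weeks H3K4me1 covered 18191 bases in wild-type HSCs, 20120 with 1 conditional allele and 23612 in the knockout. In HPCs the values were 24728, 28749 and 24454 bases. Relative to the median gene the HPC lists were higher than the HSC lists by 0.17, 0.53 and 0.19, none past the fold. At 16 weeks the PBS lists of HSCs held 10268 (wild type) and 6999 bases (knockout), and the 5FU lists 20120 and 7838. Both knockout lists were the lowest, and the high value came from the list of 2 library sets.

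H3K27ac around Cxcr4 covered 12183 bases in HSCs of the wild type and 10311 in those of the knockout after PBS, and 15751 and 12730 after 5FU. In HPCs it covered 14099 and 12237 after PBS, and 20419 and 12502 after IL-1. The wild-type list was the higher in each of the 4 pairs, but it also covered more of the genome in each. Relative to the median gene the knockout was at −0.07 and −0.13 in HSCs after PBS and 5FU. In HPCs after PBS and IL-1 it was at −0.25 and −0.57, and none was past the fold.

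In every list most of the covered bases lay upstream of the start, and a cluster between 20 and 35 kb upstream was present in all of them. The cluster held most of the H3K27ac coverage in each of the 8 lists. For H3K4me1 it held 8732 of 18191 bases in wild-type HSCs and 10098 of 24728 in wild-type HPCs at 8 weeks. Its strongest H3K4me1 element, chr1:128612727-128615308, ran from −23.0 to −20.4 kb and was covered over 1412 to 2552 bases in the 10 lists. H3K27ac formed an element from −26.5 to −20.4 kb that was covered over 4108 to 5928 bases in the 8 lists. This cluster differed little between cell types, with 7013 to 11179 bases of H3K27ac in HSCs and 7256 to 11973 in HPCs.

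The start site did differ. The element with the highest −log10 p for H3K27ac, chr1:128590578-128593744, spans −1.4 to 1.7 kb around the start. It was covered over 645, 897, 857 and 628 bases in the HSC lists (wild type and knockout after PBS, then after 5FU). In the HPC lists it was covered over 2554, 2895, 3040 and 2421 bases, in the same order of genotypes with IL-1 in place of 5FU. The start base was covered in 4 of 4 HPC lists and in 0 of 4 HSC lists. How many start sites of all genes had this pattern was not counted. The HSC and HPC lists for H3K27ac differ in age, treatment and library set as well as in cell type, which cannot be told apart. In start sites of all genes the share covered was 33.5% to 36.5% in the HSC lists and 42.0% to 44.4% in the HPC lists.

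A second difference lay between 9 and 20 kb upstream. H3K4me1 covered 4474, 6562 and 4919 bases there in the wild-type, heterozygous and knockout HPC lists, and 1777, 1443 and 1898 in the matched HSC lists. The element chr1:128607328-128610017 (−17.7 to −15.0 kb) was present in all 3 HPC lists and in none of the 7 HSC lists. Of all H3K4me1 elements 1.83% had that pattern, and 3 of the 139 near the homing genes did, 1 each at Cxcr4, Itga4 and Selp. H3K27ac in the same stretch covered 191 and 255 bases in wild-type and knockout HPCs after PBS, and 2688 and 1288 after IL-1.

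**Figure D2:**
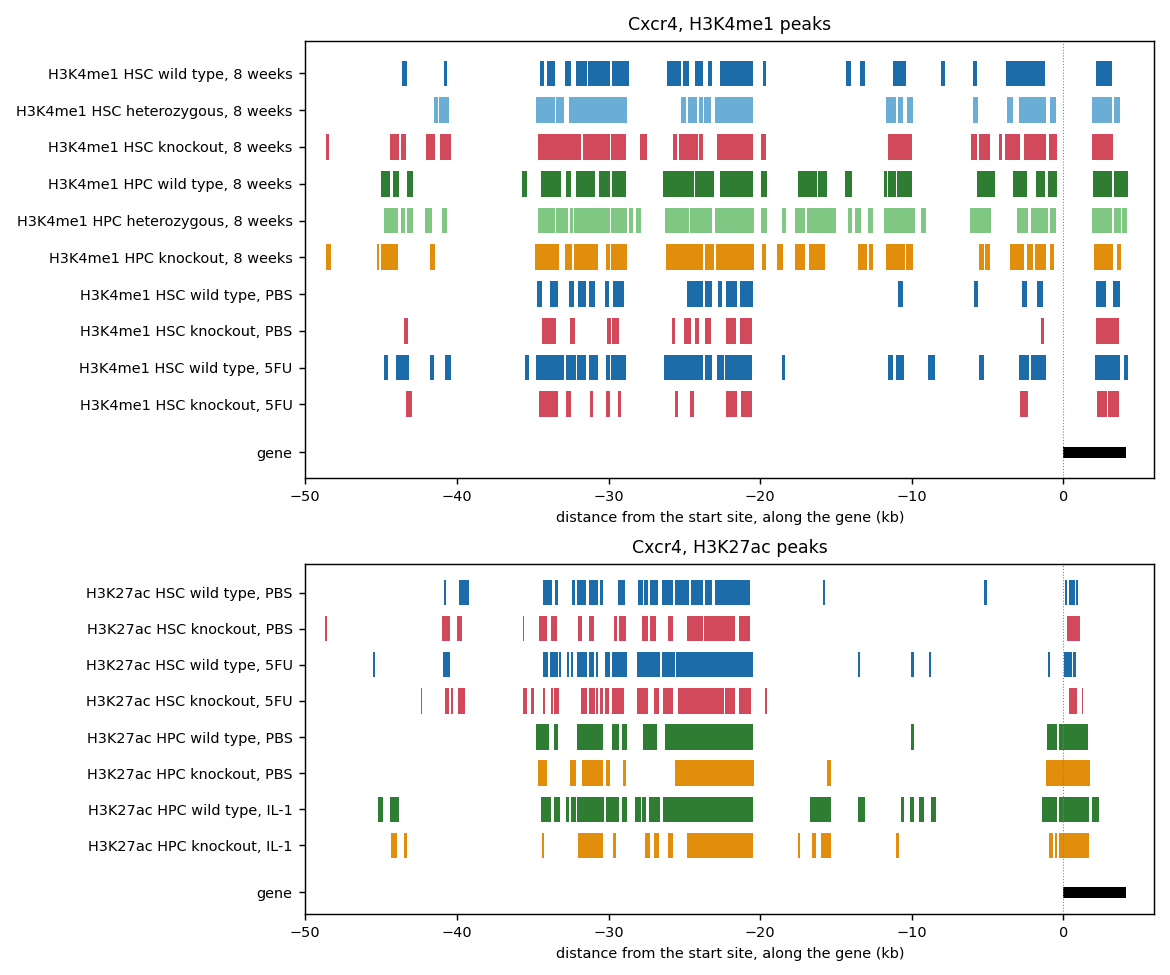
Peaks around Cxcr4 in each list, as distance from the start site in kb along the gene (horizontal axis), with H3K4me1 lists in the upper panel, H3K27ac lists in the lower and the gene as a black bar. The cluster between 20 and 35 kb upstream is in every list, while H3K27ac across the start is narrow in the 4 HSC lists (628 to 897 bases) and wide in the 4 HPC lists (2421 to 3040 bases). The HPC lists had wider H3K27ac peaks over the whole genome.

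Itga4 (gene 16401, chr2:79255426-79333114, plus strand) carried broad domains near its start. Part of Cerkl overlaps its far end. In HSCs H3K4me1 covered 18765 bases with wild-type Kmt2c, 22560 in heterozygotes and 22503 in knockouts at 8 weeks, and 22747, 21811 and 21626 in HPCs. At 16 weeks it covered 11205 and 6504 bases in wild-type and knockout HSCs after PBS, and 23771 and 8008 after 5FU. The range at 8 weeks was narrow, and relative to the median gene the HPC lists differed from the HSC lists by 0.01, −0.01 and 0.09.

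H3K27ac at Itga4 covered 12173, 8882, 12759 and 12022 bases in HSCs (wild type and knockout after PBS, then after 5FU). In HPCs it covered 10147, 10972, 9148 and 6772 bases (after PBS, then after IL-1). Coverage in HPCs was lowest in the 2 IL-1 lists. The element with the highest −log10 p, chr2:79252674-79260269, spans −2.8 to 4.8 kb around the start and was covered over 4876 to 7105 bases. An element downstream of the gene (83.1 to 84.5 kb from the start) was covered over 1030 to 1343 bases in HSCs and over 841 and 306 in HPCs after PBS, and was absent from both IL-1 lists.

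Itgb1 (gene 16412, chr8:128685654-128733579, plus strand), which encodes the partner chain of alpha4 and of many other alpha subunits, was the least covered of the 5 in all 10 H3K4me1 lists. H3K27ac formed 4 elements in its window, of which 2 were in all 8 lists. The start element, chr8:128684726-128686771, was covered over 1656 to 2046 bases and reached a −log10 p of 90.7 in wild-type HPCs after PBS. The other lay upstream (−32.2 to −29.6 kb) and was covered over 1391 to 2518 bases. Total H3K27ac coverage ran from 3047 to 4628 bases.

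Among the lists at 8 weeks H3K4me1 at Itgb1 was lower in HPCs than in HSCs. It covered 8519, 11217 and 12627 bases in wild-type, heterozygous and knockout HSCs at 8 weeks, and 6643, 6074 and 6560 in HPCs. The relative log2 ratios of HPCs to HSCs were −0.57, −0.76 and −0.71, past the fold in the heterozygous and knockout pairs. Of all genes 20.0% and 21.5% were past it in those pairs. Much of the difference lay inside the gene. Between 3.6 and 20 kb inside the gene HSCs had 2263, 4919 and 5473 covered bases and HPCs 1150, 605 and 617. All 3 member elements that were present in the 3 HSC lists at 8 weeks and in no HPC list belonged to Itgb1 (3 of 139, against 2.73% of all elements). Of these 3 elements 2 lay inside the gene and 1 upstream (−37.9 to −36.9 kb). No H3K27ac peak of any list lay between 3.6 and 20 kb inside the gene. At 16 weeks wild-type HSCs had 3676 bases and knockout HSCs 3612 after PBS, and 13071 and 4100 after 5FU.

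Cd44 (gene 12505, chr2:102811141-102901669, minus strand; part of Slc1a2 lies in its window) had the most covered bases of the 5 in every list. H3K4me1 covered 35523, 38252 and 40856 bases in wild-type, heterozygous and knockout HSCs at 8 weeks, and 45039, 45782 and 45234 in HPCs. At 16 weeks the values were 26212 and 17750 in wild-type and knockout HSCs after PBS, and 44747 and 20268 after 5FU. Most lay inside the gene. One element, chr2:102868354-102878439 (23.2 to 33.3 kb from the start), was covered over 9594 to 9952 bases in the 3 HPC lists and over 9611 to 9905 in the matched HSC lists.

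H3K27ac at Cd44 covered 19461, 13789, 21892 and 17045 bases in HSCs (wild type and knockout after PBS, then after 5FU) and 24511, 17715, 26860 and 19844 in HPCs (after PBS, then after IL-1). In all 4 pairs the knockout list was the lower. The relative log2 ratios of knockout to wild type were −0.31 and −0.19 in HSCs after PBS and 5FU and −0.50 and −0.32 in HPCs after PBS and IL-1. None of the 4 reached the fold. The element inside the gene from 26.7 to 33.5 kb had 5221 and 5373 bases in the wild-type HPC lists and 2102 and 2631 in the knockout HPC lists. In HSCs it had 6085 and 3660 bases after PBS, and 5591 and 5102 after 5FU. The start element (−0.9 to 3.1 kb) was covered over 3256 to 3679 bases in every list.

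The strongest H3K27ac element of Cd44, chr2:102946604-102950784 (−49.1 to −44.9 kb), was present in every list but wider in HPCs. It was covered over 656, 166, 1514 and 1589 bases in HSCs, and over 3869, 3301, 4031 and 3566 in HPCs. H3K4me1 in that upstream stretch ran the same way, with 3878, 3698 and 3881 bases between 40 and 50 kb upstream in HSCs at 8 weeks and 6142, 6650 and 6389 in HPCs. How many elements genome-wide differed in this way between HSCs and HPCs was not counted. For H3K4me1 the lists were matched in age and genotype.

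**Figure D3:**
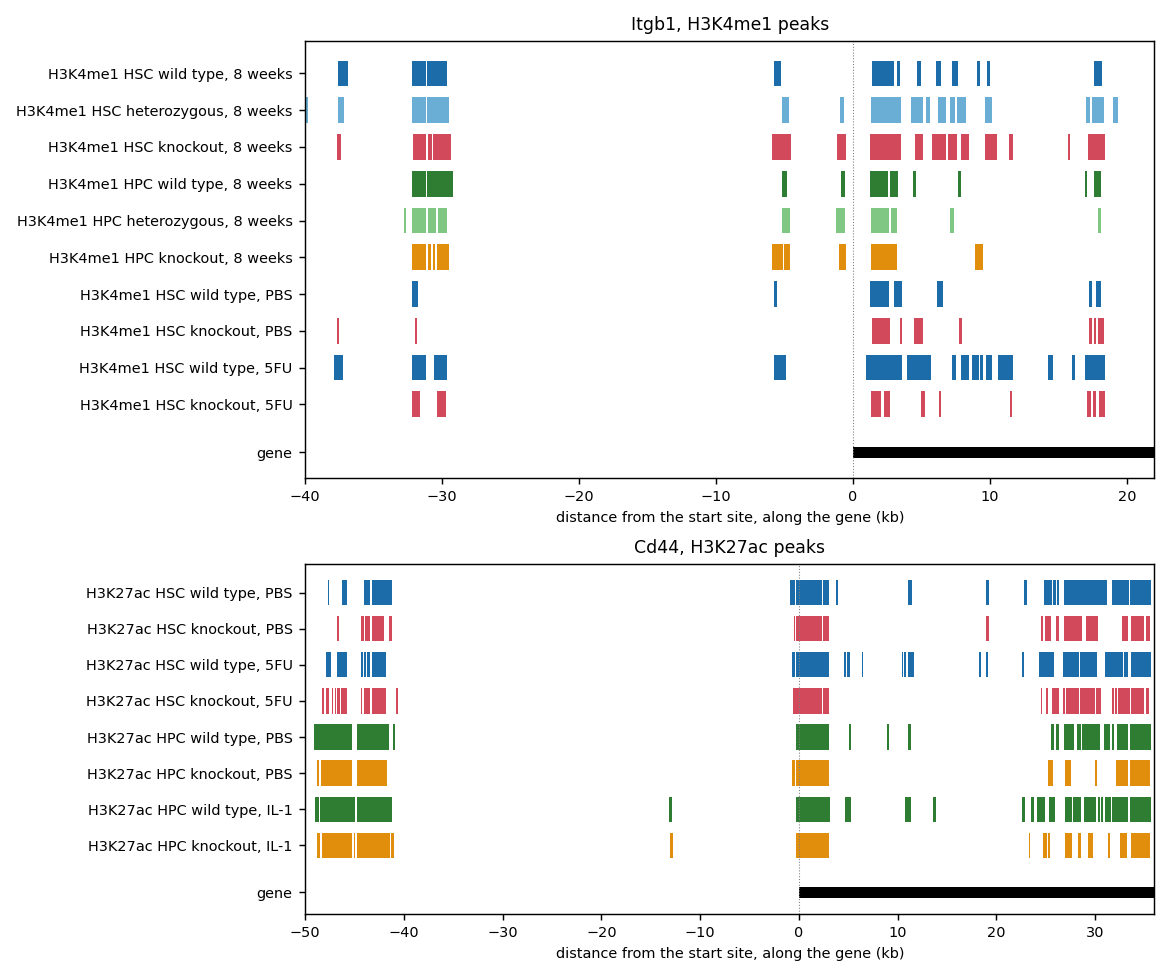
Peaks as distance from the start site in kb along the gene (horizontal axis) for H3K4me1 at Itgb1 (upper panel, 10 lists) and H3K27ac at Cd44 (lower panel, 8 lists), with each gene as a black bar that runs past the right edge. Between 3.6 and 20 kb inside Itgb1 the HPC lists hold 605 to 1150 covered bases and the HSC lists at 8 weeks 2263 to 5473, and the upstream Cd44 element is widest in the HPC lists.

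Selp (gene 20344, chr1:164115264-164150026, plus strand) has parts of other genes in its window, among them F5, the gene for coagulation factor V. Coverage there counts toward the window. H3K4me1 covered 22492, 27903 and 24502 bases in wild-type, heterozygous and knockout HSCs at 8 weeks and 34347, 37756 and 38202 in HPCs. At 16 weeks it covered 14114 and 9191 in wild-type and knockout HSCs after PBS, and 34326 and 13322 after 5FU. The relative log2 ratios of HPCs to HSCs at 8 weeks were 0.34, 0.46 and 0.76, past the fold in the knockout pair alone (21.5% of all genes). Much of the difference lay 30 to 50 kb upstream of the start. Wild-type, heterozygous and knockout HSCs had 7563, 9488 and 8561 bases there, and HPCs 14511, 15803 and 15717. Which gene that stretch serves was not tested. With a window of 10 kb in place of 50 kb the knockout ratio was 0.50, short of the fold.

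H3K27ac around Selp covered 3737 bases in wild-type HSCs after PBS and 8737 after 5FU. In knockout HSCs it covered 2451 and 6835. Both 5FU lists were above every other H3K27ac list, the HPC lists included, which ran from 3586 to 5768 bases. The relative log2 ratio of 5FU to PBS was 0.98 in wild type and 1.13 in knockout. These pairs share no list. Of all genes tested, 2.05% lay past the fold in either direction in the wild-type pair and 2.36% in the knockout pair, and Selp was the only 1 of the 5 that did. The other 4 genes had ratios of 0.01 to 0.29 in wild type and 0.19 to 0.35 in knockout. With 5000 bases added in place of 1000 the Selp ratios were 0.62 and 0.64.

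Most of the added coverage lay in the first 10 kb of the gene, where H3K27ac covered 1301 and 998 bases in wild type and knockout after PBS and 4580 and 3813 after 5FU. In HPCs the same stretch had 247, 0, 0 and 685 bases. Elements from 1.3 to 2.2 kb and from 5.5 to 6.4 kb were present in both 5FU lists and in neither PBS list. Upstream of the start, PBS lists had 313 and 0 bases and 5FU lists 1923 and 938. The rest of the gene had 1334 and 1281 bases after PBS and 1649 and 1883 after 5FU. There the strongest element, chr1:164134176-164137086 (18.9 to 21.8 kb), was in all 8 lists and wider in HPCs (2274 to 2911 bases) than in HSCs (1281 to 1811 bases). The HPC lists had wider H3K27ac peaks over the whole genome and differ from the HSC lists in age, treatment and library set. Counted over the gene body alone, the 5FU ratios were 0.95 and 0.98.

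Over all 5 genes, 7 of 118 H3K27ac elements were in both 5FU and neither PBS list of HSCs, against 2.86% of all elements. Itga4 had 5 of them, each covered over at most 513 bases in a list, and Selp had 2. None was in both PBS and neither 5FU list (1.06% of all). H3K4me1 at Selp was also above the median gene after 5FU, by 0.21 in wild type and by 0.49 in knockout.

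Megakaryocytes and endothelial cells make P-selectin, so their markers are given beside this result. Of 7 megakaryocyte markers none lay past the fold after 5FU in either genotype. Their summed H3K27ac coverage was 86318 bases after PBS and 96529 after 5FU in wild type, and 64885 and 69814 in knockout, with no marker at 0. Of 7 endothelial markers 1, Cdh5, lay past the fold in wild type (323 and 2073 bases, 1.16) and none in knockout (1596 and 1402 bases, −0.16). Their sums were 24356 and 29776 in wild type and 20468 and 20094 in knockout, with Sox17 at 0 in every H3K27ac list. The part of either cell type in the Selp result was not tested.

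**Figure D4:**
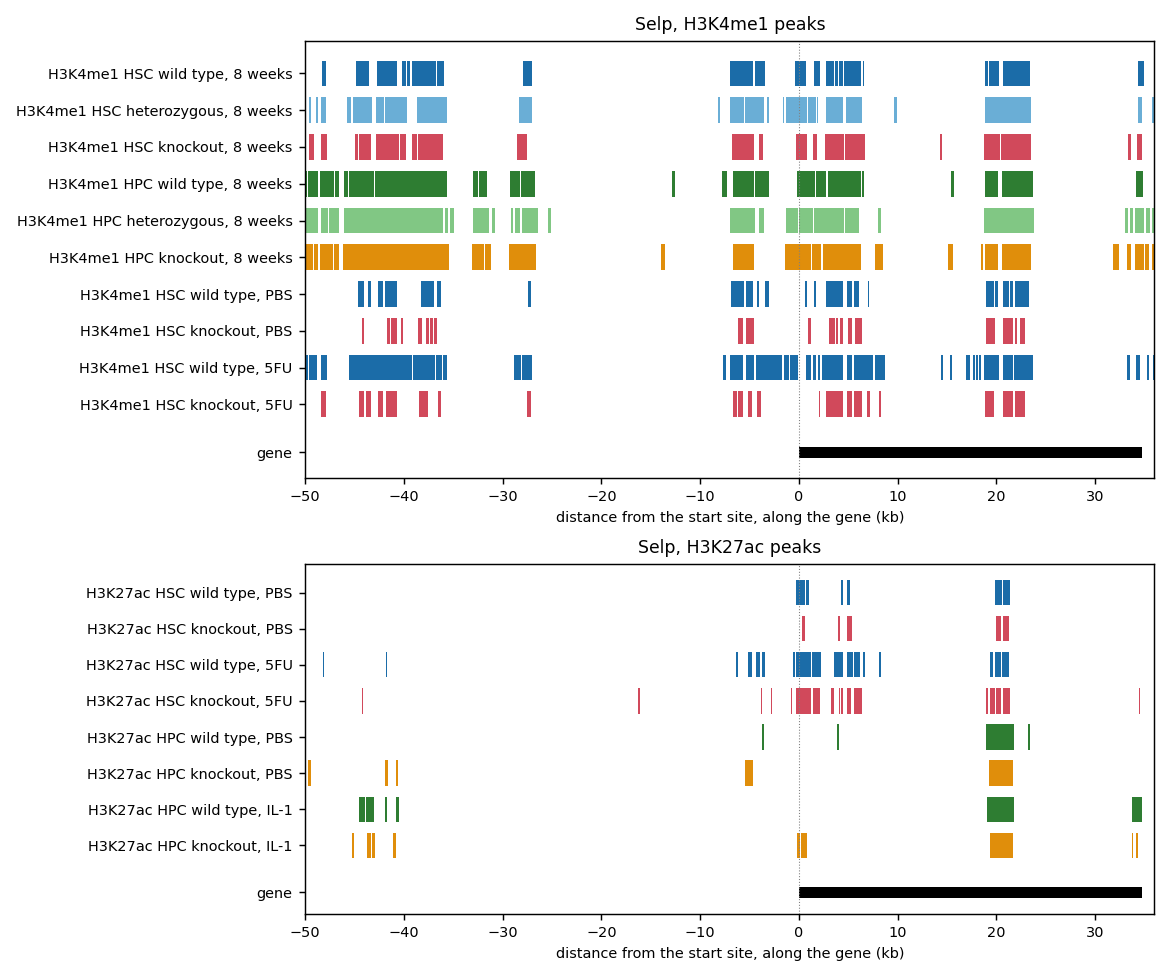
Peaks around Selp in each list, as distance from the start site in kb along the gene (horizontal axis), with H3K4me1 lists above, H3K27ac lists below and the gene as a black bar. In the first 10 kb of the gene both 5FU lists carry more H3K27ac (4580 and 3813 bases) than both PBS lists of HSCs (1301 and 998 bases), and the 4 HPC lists carry 0 to 685 bases.

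Over the 19 comparisons the 5 genes gave 95 relative log2 ratios, of which 5 were past the fold. The 3 comparisons of cell types had the highest share of all genes past the fold, at 19.0% in wild type, 20.0% in heterozygotes and 21.5% in knockouts. There 0 of 5, 1 of 5 (Itgb1, −0.76) and 2 of 5 (Itgb1, −0.71, and Selp, 0.76) were past it, which a set of 5 genes cannot set apart from the share of all genes. The members' medians were 0.08, 0.29 and 0.19. In H3K27ac no element near these genes was in all 4 HPC and no HSC list (1.69% of all elements had that pattern), and 3 were in all 4 HSC and no HPC list (3.45% of all), 1 each at Cxcr4, Itga4 and Selp. That of Selp ran from 4.8 to 5.5 kb inside the gene.

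Between knockout and wild type none of the 5 genes was past the fold in any of the 8 comparisons. For H3K4me1 at 8 weeks the relative log2 ratios of knockout to wild type ran from −0.27 to 0.13 in HSCs and from −0.06 to 0.15 in HPCs, while 5.87% and 4.52% of all genes were past the fold. With 1 conditional allele they ran from −0.13 to 0.12 in HSCs and from −0.07 to 0.25 in HPCs (3.94% and 3.3% of all genes). At 16 weeks after PBS 4 of 5 genes lay below the median gene, from −0.53 at Itga4 to −0.32 at Cxcr4, and Itgb1 lay at 0.16 (9.32% of all genes past the fold). After 5FU the ratios ran from −0.26 to 0.10 (14.2%), a comparison that holds the list of 2 library sets.

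For H3K27ac 15 of 20 knockout ratios lay below the median gene, and none was past the fold. In HSCs after PBS all 5 genes were below it, from −0.31 at Cd44 to −0.03 at Itgb1 (5.47% of all genes past the fold), but with a 10 kb window Cxcr4 was at 0.14. After 5FU 3 of 5 were below, between −0.19 and 0.08 (5.73%). In HPCs after PBS Cd44 was at −0.50 and Cxcr4 at −0.25, with the other 3 between 0.03 and 0.09 (4.73%). After IL-1 all 5 were below, from −0.57 at Cxcr4 to −0.07 at Selp (4.1%), but with equal covered bases Cd44 was at 0.05 and Selp at 0.29. Comparisons of genotype and of treatment within a cell type share lists, so their values are not independent of each other.

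Between IL-1 and PBS in HPCs the 5 genes lay on both sides of the median gene. In wild type Selp was at 0.58 and Cxcr4 at 0.52, both just short of the fold, with Cd44 at 0.15, Itgb1 at −0.06 and Itga4 at −0.12 (3.25% of all genes past the fold). In knockout Selp was at 0.42, Cd44 at 0.33 and Cxcr4 at 0.20, with Itgb1 at −0.19 and Itga4 at −0.45 (3.15%). In both genotypes the 2 integrin genes lay below the median gene and the other 3 above it, but with a 10 kb window Cxcr4 was at −0.05 and Itgb1 at 0.06 in knockout. Elements in both IL-1 lists and neither PBS list numbered 2 at Selp and 1 each at Cxcr4 and Cd44 (4 of 118, against 1.26% of all elements). The Cxcr4 element (−44.4 to −43.8 kb) had 567 and 350 bases in wild type and knockout. The reverse pattern held for 2 elements, both of Itga4 (1.32% of all).

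For 5FU and H3K4me1 the ratios ran from 0.14 to 0.49 in knockout HSCs (8.37% of all genes past the fold). In wild type they ran from −0.27 at Cd44 to 0.57 at Itgb1 (9.81%), in the pair whose second list drew on 2 library sets.

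**Figure D5:**
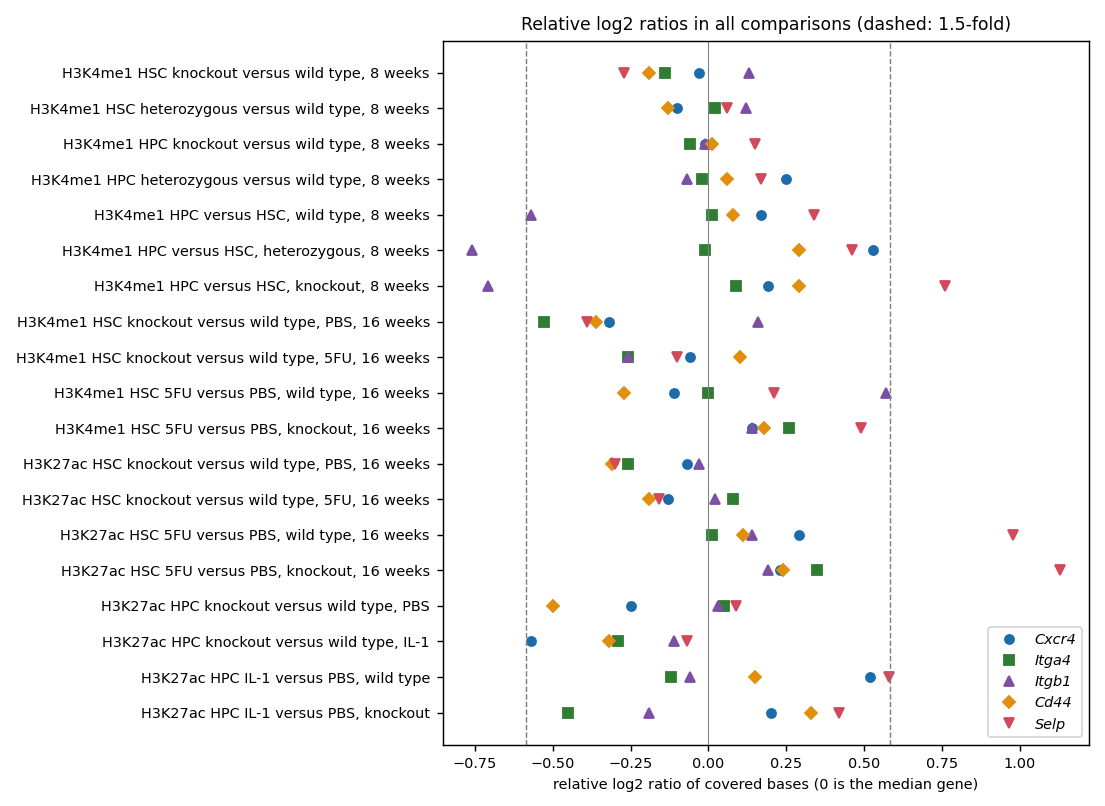
Relative log2 ratio of covered bases (horizontal axis, 0 being the median gene) for each of the 5 genes (symbols) in 19 comparisons (rows), with dashed lines at 1.5-fold. Of 95 values 5 lie outside the dashed lines, and the farthest are Selp in the 2 H3K27ac comparisons of 5FU with PBS (0.98 and 1.13).

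Other genes of adhesion and migration were taken from 7 lists with 66 genes. In wild-type H3K4me1 lists 10 of 62 measured genes were past the fold between HPCs and HSCs, 8 higher in HPCs and 2 lower (16.1%, against 19.0% of all genes). The chemokine and homing receptors, 1 of the 7 lists, had 4 of 10 higher and none lower, with a median of 0.50. Of all genes 9.84% were higher and 9.15% lower. Among these receptors were Cx3cr1, the fractalkine receptor (3637 bases in HSCs and 15035 in HPCs, 1.54), and Ackr3, a second receptor for CXCL12 (1589 and 7350, 1.44). Of the selectins and their ligands Sele, the E-selectin gene, was at 0.77, and Podxl, a sialomucin that can carry selectin ligands, was at −0.89. CXCL12 itself is made by stromal cells, and its gene had 3432 and 2116 covered bases (−0.76). The fibronectin gene Fn1 had 2933 and 8196 (0.97).

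Among the other integrins, none of 10 was past the fold between the cell types in wild type. Itgav was lowest at −0.46 and Itga5, the fibronectin-binding partner of beta1, was at −0.44. The genes that switch integrins on lay close to the median gene, with 0 of 8 past the fold and Ptk2, the focal adhesion kinase, at −0.30 and Vcl, vinculin, at −0.29. Of other surface adhesion genes Alcam was at 0.62 and Cd164, a sialomucin of progenitors, at 0.49.

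For H3K27ac in knockout against wild type, between 5 and 8 of 57 to 60 measured pathway genes were at least 1.5-fold lower in each of the 4 comparisons, and 0, 0, 2 and 0 were higher. All genes tested were lower in 3.34% to 5.08%. S1pr1, the receptor for sphingosine-1-phosphate that guides exit from tissues, was below the median gene in 8 of 8 genotype comparisons and past the fold in 6. The 6 include the H3K4me1 pair after 5FU, which holds the list of 2 library sets, and neither H3K4me1 pair at 8 weeks. In wild-type HSCs after PBS H3K27ac covered 5925 bases and in knockout HSCs 1956 (−1.07), and after 5FU the pair was 8517 and 2293 (−1.37). In HPCs it was 8173 and 4701 after PBS (−0.74), and 5515 and 1907 after IL-1 (−1.07). Thus H3K27ac coverage at S1pr1 was lower in the knockout list in both cell types and under each treatment. However, S1pr1 was chosen for its genotype ratio and its values are a description.

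Itgb3, the beta chain of the platelet integrin, was past the fold in 4 of 8 genotype comparisons, with 5905 and 888 bases of H3K27ac in HSCs after PBS (−1.72). Dpp4, the peptidase that cleaves CXCL12, was below the median gene in 8 of 8 and past the fold in 4. Its lowest ratio, −1.44 for H3K4me1 in HSCs after 5FU (8152 and 465 bases), came from the pair with the list of 2 library sets. Gcnt1, an enzyme that builds selectin ligands, was below it in 8 of 8, with 11199 and 4250 bases in HPCs after IL-1 (−1.12). Pecam1, an adhesion protein of endothelial and blood cells, had 30088 and 14162 bases in HSCs after PBS (−0.88). The same rule named Tln1, talin, at −0.62 for H3K27ac in HSCs after 5FU. For H3K4me1 in HSCs after PBS it named Itgav (−0.85), Alcam (−1.21) and Fn1 (0.76). It also named Cd24a in HSCs after 5FU (−1.20 for H3K4me1, in the pair with the list of 2 library sets) and the hyaluronan synthase gene Has2 in HPCs at 8 weeks (275 and 1378 bases of H3K4me1, 0.90).

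Log2 coverage was taken less the median gene of each list and then centred on the mean within each mark. By correlation of these values across the 18 lists, the genes most like each of the 5 were found. They were Wdr77 (Pearson r of 0.875) and Cadm1 (0.873) for Cxcr4, Trim6 (0.866) for Itga4, Zranb1 (0.933) and Capn12 (0.916) for Itgb1, Sla (0.932) and Ifitm3 (0.928) for Cd44, and Ms4a4b (0.767) and Fndc3a (0.752) for Selp. The points share library sets and list sizes. Among the 5 genes themselves r ran from −0.541, for Cxcr4 with Itgb1, to 0.646, for Cxcr4 with Cd44. The 2 chains of VLA-4, Itga4 and Itgb1, had an r of 0.088.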

How the data were processed

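ChIPmentation libraries for H3K4me1 and H3K27ac gave 18 deposited narrowPeak lists, 1 per group and pooled over 3 to 6 libraries. The aligner Novoalign, the peak caller MACS2 and the build mm10 (GRCm38) are named in the submitters' processing notes. Versions, filters and how libraries were pooled: not given in the sources used here. Among the authors' deposited values per peak are its position, a score, a fold enrichment (a ratio) and a −log10 p. These values are the authors' and served only to rank, filter or describe peaks within a list. No read numbers were used, so depth is unknown. All lists kept peaks down to a −log10 p of 2.01 to 2.05, so lists of unequal depth differ in size and in covered bases.

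With Python 3.11.15, numpy 2.4.6 and pandas 2.3.3, overlapping or touching peaks were merged, and covered bases were summed within 50 kb of each RefSeq gene (GRCm38.p6, the build of the lists). An element was present in a list when peaks of that list overlapped it by at least 1 bp. All 5 genes matched a RefSeq promoter, which gave strand and start site. The interval and ratio steps were tested on made-up intervals. Groups had 1 list each, so no test was possible; with 1.5-fold as a limit, 19 comparisons were described. Alternatives were a 10 kb window, the gene body alone, equal numbers of peaks, equal covered bases, 5000 added bases and a −log10 p of at least 3.

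The genes, lists and comparisons were chosen with earlier results of these data known. Stretches of a gene described by distance were chosen after their values were seen. Named pathway genes were the 2 with the largest ratio per list between wild-type HPCs and HSCs and up to 2 past 1.5-fold in knockout against wild type; genes most like a member were the 2 with the highest correlation, with a mean of at least 5000 covered bases and a window apart from that of the member. For Itga4 only the first is named. Some neighbouring and pathway genes are not reported here.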

Additional observations from a re-analysis of the deposited data

How the results depend on the processing

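All differences are between pooled lists, and neither replicate error nor depth limits could be computed. No paired analysis was possible because each group had 1 pooled list with no values per library, and no replicate could be left out for the same reason. Of 117 alternative values for the medians of the 5 genes and the count of elements in every list, 115 kept their side of the 1.5-fold limit or stayed within 1.5 times. The elements in every list numbered 43, and 13 when at least 50% of an element had to be covered and 24 with a 10 kb window. The 10 kb window held fewer elements, of which 18.5% of 81 (H3K4me1) and 13.2% of 68 (H3K27ac) were in every list. With 50 kb the shares were 17.3% of 139 and 16.1% of 118. Of 570 values for single genes, 554 kept their side, 4 lost it, 12 passed it and none reversed a call. The main medians ran from −0.36 to 0.29, and 5 of 95 main values for single genes were past the fold. Few alternatives could thus lose or reverse a call. However, 32 of the 570 changed sign with both values at least 0.05 from the median gene, so counts of signs depend on the setting. Both Selp ratios after 5FU (0.98 and 1.13) stayed past the fold in all 6 alternatives each. Lost calls were Itgb1 between cell types with 5000 bases added (−0.53 in heterozygotes, −0.51 in knockouts) and Selp in knockouts with a 10 kb window (0.50) or the gene body alone (0.46). Values that passed the fold include Cxcr4 (0.60) and Selp (0.64 and 0.65) after IL-1 in wild type with equal covered bases or a −log10 p of at least 3, Cxcr4 in knockout HPCs after IL-1 (−0.72 with a −log10 p of at least 3) and Itgb1 in wild-type HPCs (−0.83 with equal covered bases). The cause was not tested.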
